A study of Rattus norvegicus with 2 samples.

Results

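Ion channel subunits were taken as every probe set whose gene symbol on the rat U34A array begins with Kcn followed by a letter, Scn followed by a digit, Scnn1, Cacn, Clcn, Trpc, Trpv or Trpm followed by a digit, Itpr or Ryr. This gave 147 of the array's 8799 probe sets, for 93 of 4736 genes. RNA of the duodenal mucosa was hybridised to 1 oligonucleotide array for a control rat, which lived in a metabolic cage for 2 weeks, and to 1 for a rat that spent them in an immobilization cage. Both were male Wistar rats aged 15 weeks, the material was labelled as duodenal epithelial cells, and the sources used here do not mention pooled animals. With 1 array per group no difference can be set against the spread between animals, so values and counts are given without tests, and the number of arrays limits their precision.

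Ion channels are membrane proteins built from pore-forming subunits, which carry the selectivity for an ion, and auxiliary subunits, which set their trafficking and gating. In absorptive and secretory epithelium, potassium channels keep the membrane voltage that drives chloride and bicarbonate across the cell, the epithelial sodium channel takes up sodium, and inositol trisphosphate receptors release calcium from the endoplasmic reticulum. Voltage-gated sodium and calcium channels are best known from nerve and muscle.

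The enterocyte markers were present at high signals: the 7 with a probe set (Alpi, Fabp1, Fabp2, Lct, Apoa4, Anpep and Slc5a1) had signals above the array median in both rats, with a summed signal of 36996 in the control rat and 32857 in the immobilized rat after scaling. Of 8 neuronal markers with a probe set, 0 were above the median on both arrays, and Nefl was above it on the control array only. The summed neuronal signal was 149 and 129. Of 3 glial markers, 0 were above the median on either array. Smooth muscle markers were above it on both arrays for 5 of 7, exocrine pancreas markers for 11 of 11 and enteroendocrine markers for 6 of 6. Immune markers were for 3 of 6, and skeletal and heart muscle markers for 1 of 6 (Tnni3, with 57 and 48.6 after scaling). With each gene represented by its brightest probe set, as here, 53.1% of all genes were above both medians. No marker was at 0 on either array.

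Most ion channel subunits gave little signal in this tissue. Only 20 of 147 probe sets (13.6%) exceeded the median of all probe sets on both arrays, against 46.8% of the 8740 probe sets other than array controls. A further 9 (against 6.33%) were above it on 1 array and 118 on neither. The medians were 40.2 signal units in the control rat and 39.6 in the immobilized rat, and the median ion channel probe set had 10.5 and 8.7. Signals were below 10 on both arrays for 65 of 147 (44.2%), against 21.7% of all probe sets, and above 100 on both for 8 (5.44%), against 31.5%. By gene, 18 of 93 (19.4%) had at least 1 probe set above the median on both arrays, against 53.2% of all genes. A probe set's signal depends on its probes as well as on the RNA, so a signal below the median does not show that a channel is absent. In mucosal RNA, fewer cells of a type and less RNA per cell cannot be told apart.

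**Figure D1:**
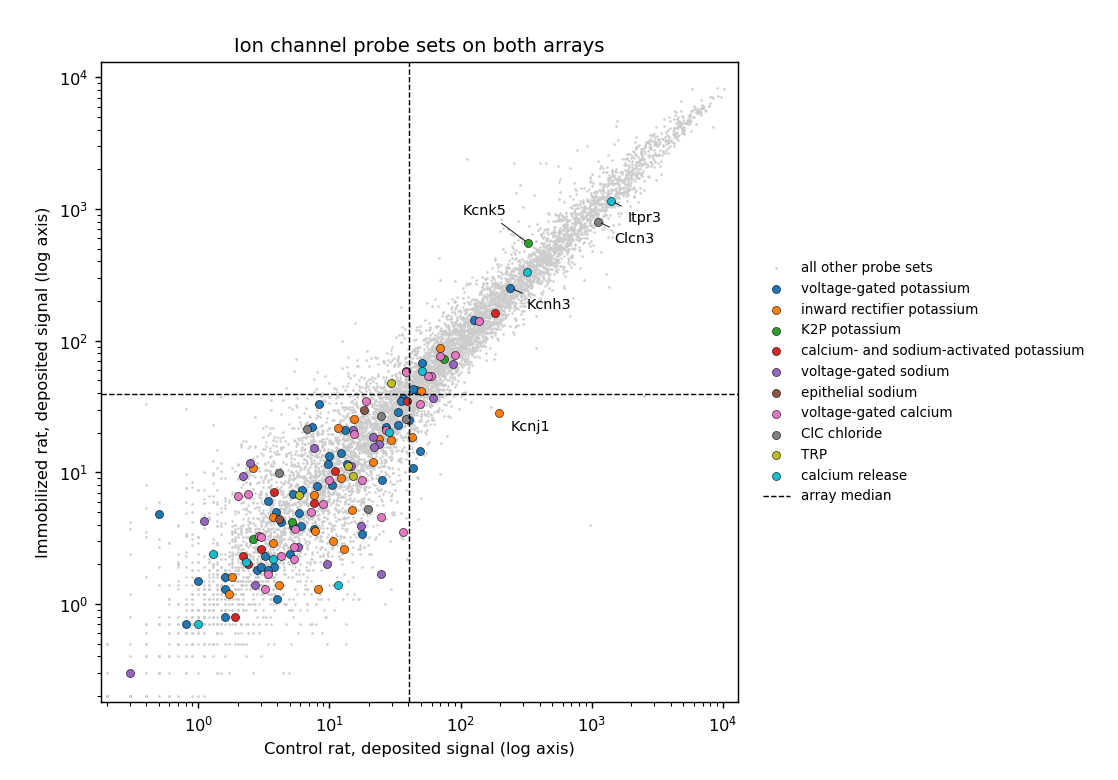
Deposited signals of the 147 ion channel probe sets, coloured by class, and of all other probe sets (grey; values under 0.2 are drawn at 0.2) in the control rat (x axis) and the immobilized rat (y axis), both on log axes, with dashed lines at the array medians of 40.2 and 39.6. Most ion channel probe sets lie in the lower left quadrant and 20 lie in the upper right. The brightest Kcnj1 probe set (197.5 and 28.1) lies far below the diagonal. Some probe sets below both medians also do, such as 1 of Scn8a (24.9 and 1.7).

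The classes differed in how many subunits exceeded the median, though several hold few probe sets. Among potassium channels the share on both arrays was 5 of 47 (10.6%) for voltage-gated channels and their partners, 2 of 22 (9.09%) for inward rectifiers, 1 of 9 for calcium- and sodium-activated channels and 2 of 4 for K2P channels, which carry background potassium current. It was 1 of 17 (5.88%) for voltage-gated sodium channels, 5 of 26 (19.2%) for voltage-gated calcium channels, 1 of 6 for ClC proteins and 3 of 9 for calcium release channels. The 3 epithelial sodium channel subunits and the 4 TRP probe sets had 0 above the median on both arrays and 1 each above it in the immobilized rat only. Of the 22 probe sets for the pore subunits Kcna1 to Kcna6, Kcnb2, Kcnc and Kcnd, which shape action potentials in neurons, 0 exceeded the median on both arrays. Auxiliary subunits exceeded it for 5 of 16 probe sets (31.2%, from 4 genes) and pore-forming subunits for 15 of 131 (11.5%, from 14 genes). Over all probe sets the share above the median on both arrays was 46.8%.

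**Figure D2:**
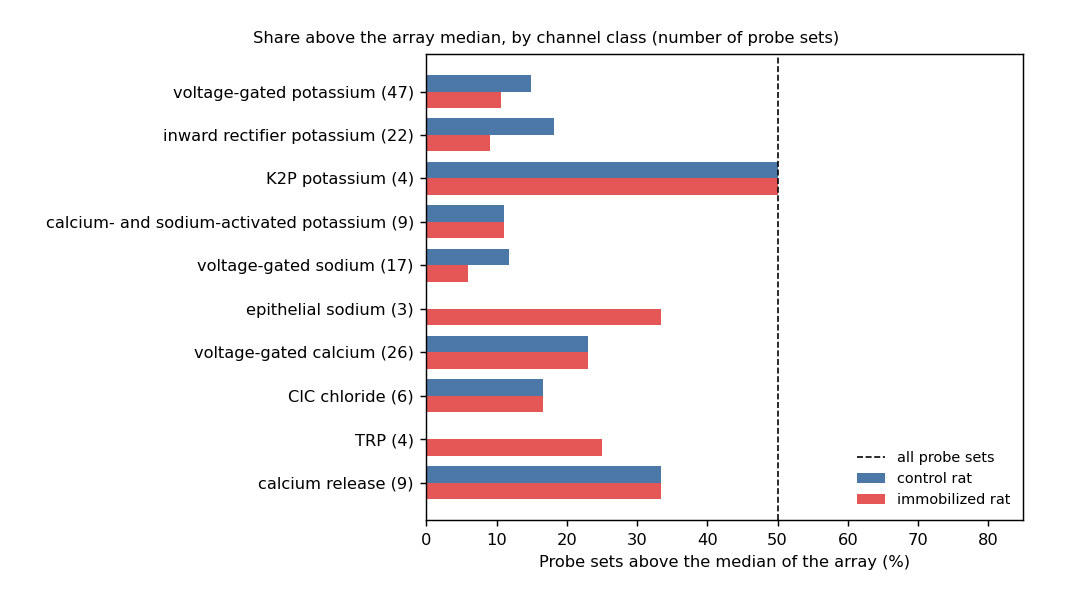
Percent of probe sets above the median of their array, by channel class, for the control rat (blue) and the immobilized rat (red); the number of probe sets in each class is in brackets, and the dashed line marks the 50.0% of all probe sets. K2P channels reach 50% on both arrays, and the bars of the other classes stay below the line.

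In total 26 ion channel probe sets were above the median in the control rat and 23 in the immobilized rat. Those above it in the control rat only numbered 6 (against 3.16% of all probe sets) and those in the immobilized rat only numbered 3 (against 3.17%). Signals near the median can fall on either side of it, and Kcnh8 in the control rat lay at the median itself, with 40.2.

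None of the ion channel ratios reached 2-fold. For ratios and bounds, the immobilized rat's signals were multiplied by 1.016, which sets the median log2 ratio of all 4092 probe sets above both medians to 0. Signals of ion channel probe sets are printed as deposited, before this scaling, so their plain quotient differs slightly from the ratio given. Of the 20 ion channel probe sets above both medians, the number higher by 2-fold or more in the immobilized rat was 0 and the number lower by as much was 0, where 2.32% and 0.855% of all such probe sets were. With a threshold of 1.5-fold, 1 was higher (Kcnk5) and 0 were lower, against 8.90% and 5.45%. The floor limits these counts, because a signal less than 2-fold above the median in the control rat could not be called 2-fold lower. The same held for the immobilized rat and 2-fold higher. Of the 20, 12 had both signals under 100, while 1144 of all 4092 had a mean signal below 100. A Kcnj1 probe set with a bound of at least 4.91-fold lower is outside the 20. Ratios of the 20 were above 0 for 10 and below 0 for 10, with 50.0% of all probe sets above both medians below 0. The median log2 ratio was 0.00, as over all probe sets above both medians. The technical SD, from log2 ratios of different probe sets for 1 gene, was 0.31 (1567 probe sets of 695 genes). This is error within the array pair and not the spread between animals. It leaves out probe sets below a median, and was 0.33 for those with a mean signal below 100. Of the 20 ratios, 5 (25%) lay beyond 0.31, against 40.1% of all probe sets above both medians.

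**Figure D3:**
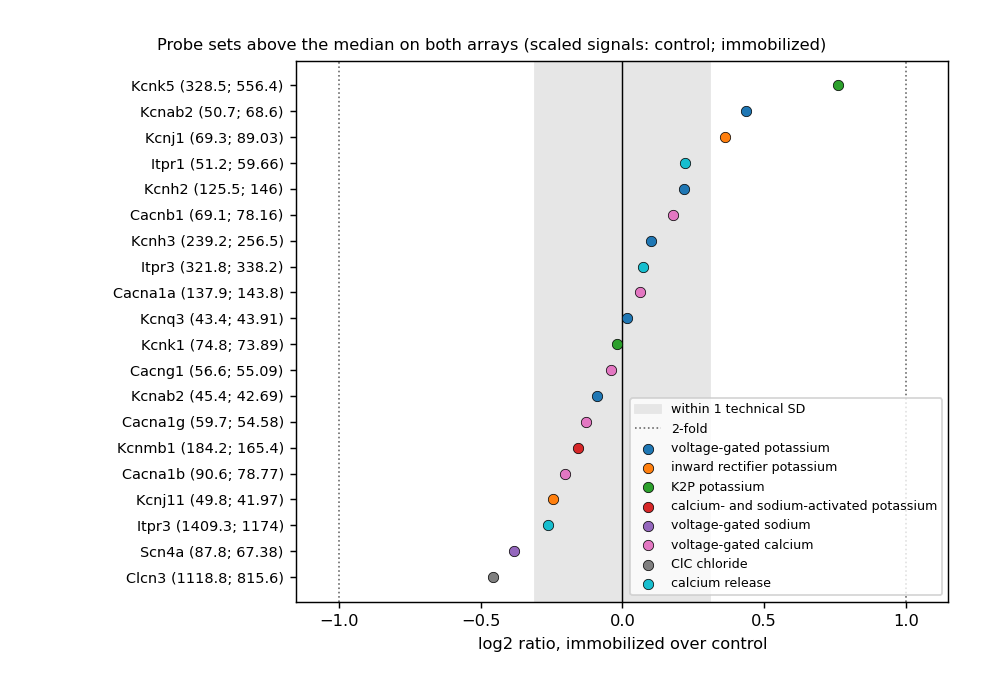
Log2 ratio (immobilized over control, x axis) of each of the 20 probe sets above the median on both arrays, with the scaled signals of the control and immobilized rat in brackets; the grey band is 1 technical SD (0.31) and dotted lines mark 2-fold. Kcnk5 is highest at 0.76 and Clcn3 lowest at -0.46, and no point reaches a dotted line.

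Kcnk5, a background potassium channel of epithelia that opens at alkaline pH and is also called TASK-2, showed the largest ratio. Its signal was 328.5 in the control rat and 547.5 in the immobilized rat. After scaling this was 1.69-fold higher, a log2 ratio of 0.76 and 2.46 times the technical SD, from a single probe set, and 0.74 to 0.77 over the scalings tried. In the same comparison 11 of 11 exocrine pancreas markers were higher, with a summed signal after scaling of 6543 in the control rat and 12660 in the immobilized rat, and their part in the Kcnk5 value was not tested. Kcnk1, which encodes the weakly conducting K2P channel TWIK-1, had 74.8 and 72.7, a log2 ratio of -0.02. Both Kcnk3 probe sets, for the acid-sensitive TASK-1, had signals of at most 5.2. The K2P family thus held a subunit that was higher in the immobilized rat, a subunit that hardly differed and a subunit below the median.

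Among inward rectifiers, the probe sets of Kcnj1 disagreed. Kcnj1 encodes ROMK, the potassium secretory channel of the renal tubule. Its first probe set had 197.5 in the control rat and 28.1 in the immobilized rat, a bound of at least 4.91-fold lower, taken against the median because the second value is below it. Its second probe set had 69.3 and 87.6, a log2 ratio of 0.36, opposite in sign, and the last had 7.7 and 3.6. The 3 probe sets therefore give no common direction for the gene. Of the 553 probe sets above the median on 1 array only, 2.35% had a bound of at least 2-fold lower, and the first Kcnj1 probe set was the only ion channel probe set among those 13.

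Kcnj11, the pore of the ATP-sensitive potassium channel, had 49.8 and 41.3 at its first probe set, a log2 ratio of -0.25, and 23.8 and 18 at its second. Kcnj15 had 42.3 in the control rat and 18.5 in the immobilized rat, a bound of at least 1.05-fold lower. The remaining 12 inward rectifier genes (Kcnj2, Kcnj3, Kcnj4, Kcnj5, Kcnj6, Kcnj8, Kcnj9, Kcnj10, Kcnj12, Kcnj13, Kcnj14 and Kcnj16) were below the median at every probe set, with no signal above 29.5.

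Of the voltage-gated potassium channel class, Kcnh2, Kcnh3, Kcnq3 and the auxiliary gene Kcnab2 had probe sets above both medians. Kcnh3, a channel of the elk subfamily described in brain, had 239.2 and 252.4, a log2 ratio of 0.10. Kcnh2, the erg channel that repolarises heart muscle, had 125.5 and 143.7, a log2 ratio of 0.22. Each had a second probe set below the median, with at most 13.6. Kcnq3, a subunit of the neuronal M current, had 43.4 and 43.2, just above the medians, and its log2 ratio of 0.02 after scaling turned to -0.01 with the signals as deposited or scaled by the trimmed mean. Its second probe set had 4 and 1.1.

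Among the auxiliary subunits of this class, Kcnab2, a cytoplasmic beta subunit related to aldo-keto reductases, was above both medians at both probe sets. The log2 ratio was 0.44 at the first, with 50.7 and 67.5, and -0.09 at the second, with 45.4 and 42. Kcne1, which slows the gating of Kcnq1 channels, had 49.1 in the control rat and 14.4 in the immobilized rat, a bound of at least 1.22-fold lower, and 3 and 1.9 at another probe set. Kcnq1 itself, which returns potassium across the basolateral membrane of secretory epithelia, had 5 and 2.4. Kcnc4, a fast inactivating channel, had 43.2 and 10.7, a bound of at least 1.07-fold lower. The remaining voltage-gated potassium channel genes with no probe set above the median were Kcna1 to Kcna6, Kcnab1, Kcnab3, Kcnb2, Kcnc1, Kcnc2, Kcnd2, Kcnd3, Kcnf1, Kcng1, Kcnh1, Kcnh4 to Kcnh8, Kcns1, Kcns3 and Kcnv1, with signals of 0.5 to 40.2 over the 40 probe sets of the class above neither median.

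Of the calcium-activated class, Kcnmb1, the beta subunit of the large-conductance channel in smooth muscle, had 184.2 and 162.7, a log2 ratio of -0.16, and 11 and 10.3 at another probe set. All 4 probe sets of Kcnma1, the pore of that channel, were at most 7.6. The smooth muscle markers above the median had log2 ratios of -0.02 (Tagln, and Myl9 with 0.79 at another probe set) to 1.68 (Acta2, with -0.13 at another probe set), and the list's summed signal after scaling was 455 in the control rat and 741 in the immobilized rat. Kcnn1, Kcnn3 and Kcnt1 were below the median, the first just below it with 38.7 and 34.8.

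Clcn3 and Itpr3 had probe sets far above the array median in both rats. Clcn3, a chloride-proton exchanger of endosomes, had 1118.8 in the control rat and 802.5 in the immobilized rat. After scaling this was 1.37-fold lower, a log2 ratio of -0.46 (-0.50 to -0.45 over the scalings) and 1.47 times the technical SD. Clcn1, Clcn4, Clcn5 and Clcn7 were below the median, with 4.1 to 38.4.

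Itpr3, an inositol trisphosphate receptor common in secretory epithelia, was above both medians at both probe sets, which were designed on the same sequence record. The brighter had 1409.3 and 1154.9, a log2 ratio of -0.26, and the other 321.8 and 332.8, a log2 ratio of 0.07. The ratios have opposite signs, so no direction is given for the gene. Itpr1 had 51.2 and 58.7 at its brightest probe set, a log2 ratio of 0.22, while its other 4 probe sets had at most 3.7. Itpr2 (28.3 and 20.4) and the ryanodine receptor Ryr2 (11.7 and 1.4), the calcium release channel of heart muscle, were below the median.

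The 5 voltage-gated calcium channel probe sets above both medians belonged to 5 genes and had small ratios. The pore subunits were Cacna1a (P/Q type) with 137.9 and 141.5, Cacna1b (N type) with 90.6 and 77.5, and Cacna1g (T type) with 59.7 and 53.7. Their log2 ratios were 0.06, -0.20 and -0.13. The other 3 Cacna1a probe sets had at most 8.9 and the other Cacna1b probe set at most 24.8. The auxiliary subunits Cacnb1 (69.1 and 76.9) and Cacng1 (56.6 and 54.2), both part of the skeletal muscle channel, had log2 ratios of 0.18 and -0.04.

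Cacna1c, the L-type pore of heart and smooth muscle, was above the median in the immobilized rat only, with 38.4 and 58 (at least 1.47-fold higher), but another probe set had 36.6 and 3.5, below the median on both arrays, and the last 5.5 and 3.7. These probe sets give no common direction. Cacna1e, of the R type, was above it in the control rat only, with 48.7 and 32.8 (at least 1.21-fold lower). Cacna1d, at 5 probe sets, and Cacna1h, Cacna1s, Cacna2d1, Cacnb2, Cacnb3 and Cacnb4 were below the median, with at most 35.

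Among sodium channels, Scn4a, the channel of skeletal muscle, had 87.8 and 66.3 at its brightest probe set, a log2 ratio of -0.38, and at most 21.7 at its other 2. Scn7a, a sodium-sensing channel, had 61.9 and 36.8, a bound of at least 1.54-fold lower, and 2.2 and 9.3 at another probe set. The brain and sensory neuron channels Scn1a, Scn2a, Scn3a, Scn8a, Scn9a, Scn10a and Scn11a and the auxiliary subunit Scn2b were below the median, with at most 24.9. Scnn1a, the alpha subunit of the epithelial sodium channel, had 38.1 in the control rat and 59.2 in the immobilized rat. This gave a bound of at least 1.497-fold higher. Its partners Scnn1b (4.1 and 4.4) and Scnn1g (18.4 and 29.7) were below the median. Of the TRP cation channels, Trpc1 had 29.5 and 48.1 at its brighter probe set, a bound of at least 1.22-fold higher, and 13.8 and 11.1 at the other, and Trpc4 and Trpv1 were below the median with at most 15.

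Most channel genes with several probe sets and at least 1 above both medians also had a probe set that was not. Of 37 channel genes with several probe sets, 12 had at least 1 above both medians, and in 2 of these 12 (16.7%), Itpr3 and Kcnab2, every probe set was. Over all genes, 1079 of 1565 with several probe sets had at least 1 above both medians, and in 562 of these (52.1%) every probe set was. These shares depend on how many probe sets pass at all, which was 13.6% for ion channels and 46.8% over the array. They do not show that probe sets of channel genes disagree more often than those of other genes. In the other 10 channel genes (Cacna1a, Cacna1b, Itpr1, Kcnh2, Kcnh3, Kcnj1, Kcnj11, Kcnmb1, Kcnq3 and Scn4a) only 1 probe set exceeded both medians. Of these 10, only Kcnj1 had another probe set above the median on 1 array.

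**Figure D4:**
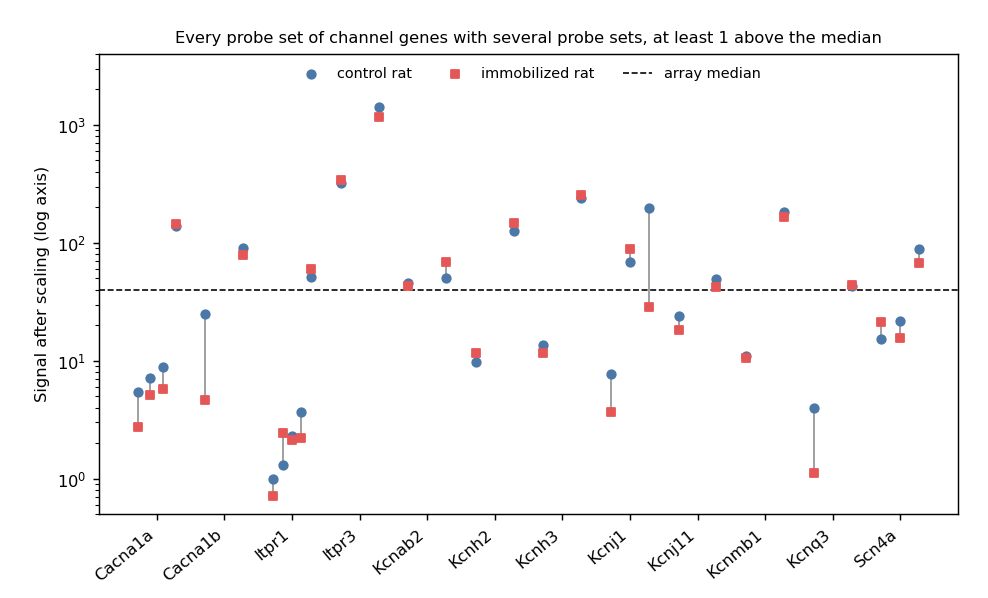
Signal after scaling (log axis) of every probe set of the 12 channel genes that have several probe sets and at least 1 above both medians, for the control rat (blue circles) and the immobilized rat (red squares); a grey line joins the values of 1 probe set and the dashed line is the array median of 40.2. For 10 of the genes the probe sets lie on both sides of the line, and the brightest Kcnj1 probe set crosses it.

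The kind of probe set moved with these results. Probe sets designed on expressed sequence tags, whose names begin with rc, made up 12 of the 147, and 4 of them (33.3%) were above both medians, against 16 of the other 135 (11.9%). Over the whole array these shares were 51.8% and 43.6%. The 4 were those of Kcnk5, Kcnab2, Cacnb1 and Cacna1a, and all had ratios above 0, while 6 of the other 16 did. Over all probe sets above both medians, ratios were above 0 for 968 of 1771 designed on expressed sequence tags and for 1078 of 2321 others. The median log2 ratio was 0.04 for those designed on expressed sequence tags and -0.03 for the others. The part of probe design in the ion channel ratios was not tested.

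The transporters and regulators that work with these channels were listed by function, each gene by its brightest probe set. Over all 4736 genes, 53.1% were above both medians by this rule, and of these 50.6% were lower in the immobilized rat, 2.03% at least 2-fold higher and 0.68% at least 2-fold lower. Of 20 transport partners with a probe set, such as chloride channels, cotransporters, pumps, guanylin genes and aquaporins, 18 were above the median on both arrays, 5 higher and 13 lower in the immobilized rat, with a median log2 ratio of -0.22 (-0.01 over all genes). Quantile normalization gave 7 higher and 11 lower and a median of -0.12. Lower at 2-fold were the chloride channel Cftr (-1.10), the sodium bicarbonate cotransporter Slc4a4 (-1.06) and the glycerol and water channel Aqp3 (-1.04). The sodium-proton exchanger Slc9a2 (-0.69) followed. After scaling, Cftr had 106.5 and 49.6, the latter near the median, while Slc4a4 had 1625 and 778. Higher were the water channel Aqp8 (1.10), the chloride-loading cotransporter Slc12a2 (0.83) and the water channel Aqp1 (0.81). The Slc12a2 value (90.4 and 161) came from the only 1 of its 4 probe sets above both medians. In the same comparison enterocyte markers were lower for 6 of 7, with a median of -0.21. The count was 4 of 7 after quantile normalization (median -0.09) or loess (-0.10), where Fabp1 and Anpep turned sign. Other probe sets of Anpep had -0.74 to -0.51 with the scaling used above. The part of the enterocyte markers in these values was not tested.

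Of 14 regulators and scaffolds of channels, 10 were above both medians, 2 higher and 8 lower, and 0 differed by 1.5-fold, as 13.3% of all genes above both medians did. Of 19 genes of calcium stores, 13 were above both medians, 7 higher and 6 lower. Among these, Fkbp1a, which binds calcium release channels, was higher (0.91, with 0.10 to 0.85 at other probe sets). The phospholipase Plcg1 (-0.67) and the scaffold Homer1 (-0.64, with -0.27 at another probe set) were lower.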

How the data were processed

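The authors deposited a linear signal intensity for each probe set, computed with the manufacturer's software (version 4.0, with filtering and normalization, per the labels' design text; MAS5 per the submitters' processing notes, so the algorithm is unsettled). Detection calls were not used here. Groups came from the sample titles. The 59 array controls were left out. Of the other 8740 probe sets, 7006 had 1 gene symbol, 308 several (0 matching the rule) and 1426 none. Symbols updated through the gene ID gave the same 147 members.

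The floor was the median (50th percentile) of each array. Ratios were taken where both arrays exceeded it, and a bound was the signal over the floor where 1 did. In gene lists each gene was represented by its brightest probe set. Every member above the median on an array was named. In the lists of transport partners, regulators and calcium stores, genes at least 1.5-fold apart were named, up to 4 per direction. Genes of the cell type marker lists were not named by this rule, and some unnamed ones passed 1.5-fold. Members and lists were chosen with earlier results of these data known. Alternatives were other scalings, floors, thresholds and counting by gene. The recovery of log2 ratios and of 2-fold calls was tested on simulated data, with changes placed only in probe sets well above the median. The shares above the median and the bounds were not tested in this way. Computations ran in Python 3.11.15 (pandas 2.3.3 with numpy 2.4.6; statsmodels 0.14.6 with scipy 1.17.1; matplotlib 3.10.9).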

Additional observations from a re-analysis of the deposited data

How the results depend on the processing

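The share of ion channel probe sets above the floor moved with the floor, from 13.6% at the median to 34% with a floor at the 30th percentile and 5.44% at the 70th, where 65.3% and 28.3% of all probe sets passed. No ion channel ratio reached 2-fold with loess (span 0.3), quantile normalization, scaling by the 2% trimmed mean, the unscaled signals or the 70th percentile floor. With the floor at the 30th percentile, 3 of 50 were at least 2-fold lower (Kcnj1, Kcne1 and Kcnj15) and 0 at least 2-fold higher. The share over all probe sets at that floor was not computed, so the 3 cannot be called more or fewer than over the array. Counting bounds added 1 lower (Kcnj1). A 1.5-fold threshold gave 1 higher (Kcnk5). The median log2 ratio ranged from -0.12 to 0.07 over the settings. Of the 20 ratios, 19 kept their sign under the 4 other scalings, and that of Kcnq3 did not. No paired analysis was possible because each group had 1 array. Of the 20 probe sets above both medians, 12 had both signals under 100, which limits their ratios.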
